A study of Rattus norvegicus with 30 samples.

Results

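The transcriptome of rat hippocampal neurons after 24 h with dimethyl fumarate (DMF) was compared with that after 4 h, to follow how the response to this drug changed with the time of exposure. The comparison comprised 6 of the 30 RNA libraries of the study, chosen by their labels: 3 libraries of neurons treated with 30 µM DMF for 4 h and 3 treated for 24 h, numbered 1 to 3 at both times. The neurons were wild-type primary cultures from Wistar rat embryos at embryonic day 18, grown for 7 days before the treatment. The whole study held 10 groups of 3 libraries, in which DMF, monomethyl fumarate (MMF), cannabidiol or their vehicles were given for 4 or 24 h. The vehicle of DMF and MMF was dimethyl sulfoxide (DMSO), and every treated culture, drug or vehicle, held 0.2% of vehicle. The 3 DMSO libraries at 4 h and the 3 at 24 h served as the reference for the time in culture, and MMF, which was also given at 30 µM for both times, as a related compound. The cultures were prepared from whole dissected hippocampi, and the labels name no step that removes glia or dividing cells.

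DMF is a small electrophilic ester that reacts with the thiol groups of cysteines, among them those of KEAP1, the adaptor that otherwise sends the transcription factor Nrf2 to degradation. Nrf2 then binds antioxidant response elements and raises genes of glutathione, quinone and heme metabolism. Modified or misfolded proteins can also start the unfolded protein response of the endoplasmic reticulum (ER), in which chaperone genes rise through ER stress elements, and the integrated stress response, in which ATF4 raises genes of amino acid metabolism. Genes of mitosis carry a cell cycle homology region and CCAAT boxes, which the factor NF-Y binds, and are low in neurons, which do not divide.

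The promoters of 4 DEGs with these elements are shown as examples. Each is the DEG with the smallest p in its list whose promoter holds the motif searched for that list. They do not stand for their lists: *Pck2* was the 1 upregulated of 38 tested ATF4 targets, of which 3 were downregulated. Each is the run of 250 bases before the start site, from RefSeq on the GRCr8 assembly, written 5′ to 3′ on the strand of the gene, with the match to the motif in capitals. The motif of *Gstp1* (chr1:210769706-210769955, minus strand) is the antioxidant response element core TGACNNNGC, that of *Hsp90b1* (chr7:23012294-23012543, minus strand) the ER stress element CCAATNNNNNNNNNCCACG, that of *Pck2* (chr15:32997603-32997852, plus strand) the C/EBP-ATF response element TGATGNAA and that of *Top2a* (chr10:84473094-84473343, minus strand) the cell cycle genes homology region TTTGAA.
Gstp1: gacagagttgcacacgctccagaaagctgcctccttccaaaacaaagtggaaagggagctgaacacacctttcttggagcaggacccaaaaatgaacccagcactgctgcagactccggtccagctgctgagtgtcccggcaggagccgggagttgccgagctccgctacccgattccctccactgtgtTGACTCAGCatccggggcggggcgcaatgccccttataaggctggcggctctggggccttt
Hsp90b1: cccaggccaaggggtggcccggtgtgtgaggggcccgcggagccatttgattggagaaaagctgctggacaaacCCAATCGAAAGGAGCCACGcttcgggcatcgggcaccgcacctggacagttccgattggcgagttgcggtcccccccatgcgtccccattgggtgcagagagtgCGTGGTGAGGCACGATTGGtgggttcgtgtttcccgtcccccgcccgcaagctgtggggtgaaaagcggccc
Pck2: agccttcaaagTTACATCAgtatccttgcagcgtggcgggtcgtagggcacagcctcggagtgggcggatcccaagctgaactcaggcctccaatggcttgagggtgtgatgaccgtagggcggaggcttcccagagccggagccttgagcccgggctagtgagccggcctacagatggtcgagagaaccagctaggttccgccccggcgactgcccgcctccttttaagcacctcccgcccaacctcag
Top2a: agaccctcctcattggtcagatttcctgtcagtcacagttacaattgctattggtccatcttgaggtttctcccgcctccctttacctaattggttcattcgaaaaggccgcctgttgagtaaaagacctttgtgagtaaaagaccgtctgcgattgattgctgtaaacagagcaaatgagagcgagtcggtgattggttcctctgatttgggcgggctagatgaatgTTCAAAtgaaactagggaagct
Both strands were searched. The matches of *Pck2* and *Top2a* and the second of the 2 matches of *Hsp90b1* lie on the opposite strand, and the ER stress element contains a CCAAT box by its own letters. In the same window, the antioxidant response element core was found in 6 of the 26 Nrf2 target genes with a promoter in the reference table (23.1%) and in 10.1% of all 33469 promoters. The ER stress element was found in 8 of 17 ER chaperone genes (47.1%) and in 22 of all promoters (0.0657%), the ATF4 motif in 10 of 32 genes (31.2%) and in 3.4% of all, and the cell cycle homology region in 12 of 26 mitosis genes (46.2%) and in 16.2% of all. The CCAAT box was present in 17 of 17 ER chaperone genes, 18 of 26 mitosis genes and 6 of 26 Nrf2 target genes, against 34% of all promoters. The sterol regulatory element TCACNCCAC was found in 0 of 16 promoters of the sterol list and in 0.974% of all promoters. A match describes the letters and does not show that a factor binds there.

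Between 17186218 and 25367834 reads lay on genes in the DMF libraries, and between 15108132 and 25367834 in the 12 libraries of DMF and DMSO. Levels are given as normalised read counts on the common scale of these 12 libraries (reads divided by a size factor per library), while the log2 fold changes (log2FC, with their standard error) between the times come from the deposited table of each pair of groups. Genes with an adjusted p under 0.05 in limma were counted as differentially expressed genes (DEGs). In immediate early genes 1 library stood apart: in DMSO at 4 h, replicate 1 had a summed level of 34365 over 21 genes, against 13409 and 14879 in its replicates. Over 7 microglial genes, replicate 1 at 4 h was the highest with both treatments. Its summed level was 422 against 128 and 137 with DMSO, and 399.7 against 198.4 and 150.3 with DMF. The DMSO library enters only the reference, and its part is given beside the results it touches. The DMF library is part of the main comparison.

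Of 14283 genes tested, 2216 were DEGs between 24 and 4 h of DMF (15.5%), of which 1084 were upregulated (7.59%) and 1132 downregulated (7.93%). The counts of list members below are to be read beside these shares. With DMSO, 0 of 13968 genes were DEGs between the same times by limma, 1362 (9.75%) had an unadjusted p under 0.05, edgeR called 0 and DESeq2 called 48. The change with DMF itself differed from the change with DMSO in 594 of 14432 genes (4.12%), higher with DMF in 258 (1.79%) and lower in 336 (2.33%). Taking the replicate number as a block raised these counts to 4616 DEGs with DMF, 205 with DMSO and 1904 for the difference. Without replicate 2 at 24 h the count with DMF was 941, without replicate 2 at 4 h it was 981 and without replicate 1 at 4 h it was 1302. The count of the difference lay between 275 and 380 when replicate 2 of DMF at 24 or at 4 h, any of the 3 DMSO libraries at 24 h or replicate 3 of DMSO at 4 h was left out.

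**Figure D1:**
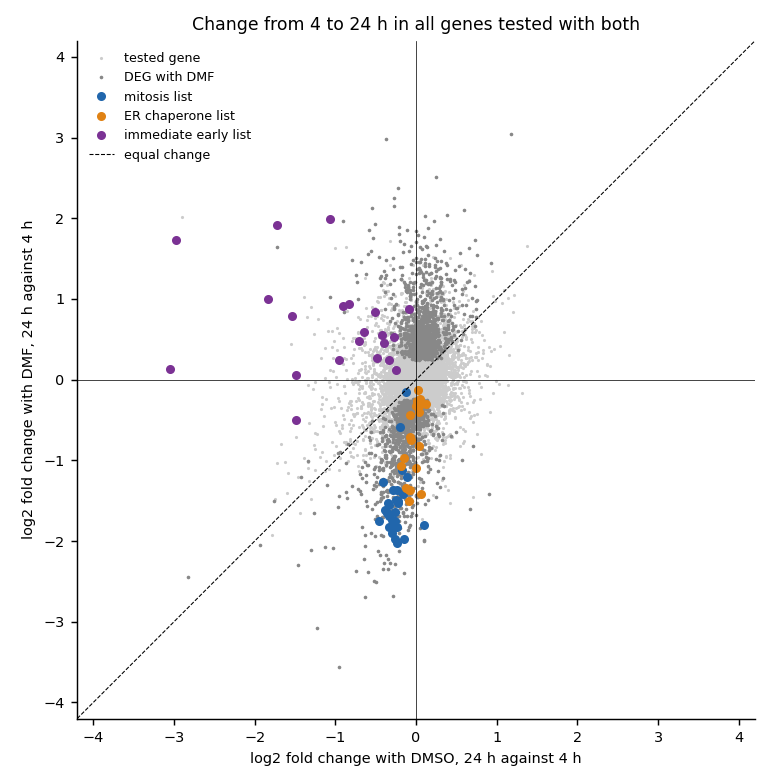
Log2 fold change from 4 to 24 h with DMSO (horizontal axis) against that with DMF (vertical axis), for the 13890 genes tested with both. Each point is 1 gene, dark grey points are DEGs with DMF, and coloured points are the lists of mitosis, ER chaperones and immediate early genes. The mitosis and ER chaperone genes lie low on the vertical axis and near 0 on the horizontal one, while of the 21 immediate early genes 20 lie above 0 with DMF and 21 below 0 with DMSO.

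The genes of mitosis fell together and had the lowest median of all gene lists described here. Of 30 tested members of the list, 29 were DEGs, all downregulated at 24 h, with a median log2FC of -1.64 against -0.26 with DMSO, and 27 of 30 fell by more with DMF than with DMSO in the test of the difference. *Top2a* (chr10:83945735-83976874, mRatBN7.2), the topoisomerase that untangles chromosomes before division, had 2319.8, 2109.5 and 1844 normalised reads in the 3 libraries at 4 h and 559.9, 442 and 534 at 24 h. The 3 late libraries lay far below the 3 early ones (log2FC -2.03 ± 0.12, adjusted p = 0.000137), whereas the DMSO libraries went from 1678 ± 234 (SD, n = 3) to 1413 ± 106. *Cdc20*, the activator of the anaphase-promoting complex, went from 765, 661 and 682 to 216, 211 and 223 (log2FC -1.69 ± 0.10, adjusted p = 0.000137). *Nusap1*, a protein of the spindle, had 471, 394 and 383 at 4 h and 100.2, 103 and 111.3 at 24 h (log2FC -1.97 ± 0.13, adjusted p = 0.000186). In none of these genes did the libraries of the times overlap, and they did not overlap in 36.1% of all genes tested either. No overlap was also a condition for naming the genes with the smallest p, so it adds no support for them. *Troap*, *Espl1*, *Aspm* and *Mki67*, the last a marker of cycling cells, fell with a log2FC of -1.98, -1.65, -1.61 and -1.42. The exception in the list was *Anln*, with 342, 324 and 282 at 4 h and 365, 312 and 197 at 24 h (log2FC -0.16, adjusted p = 0.66). Against DMSO, 0 of the 30 genes were DEGs at 4 h by limma (11 at an unadjusted p under 0.05, which 20.1% of all genes reached) and 27 were lower at 24 h, where 2.09% of all genes were. In these bulk cultures, fewer dividing cells and less RNA per dividing cell cannot be told apart.

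Genes of DNA replication fell as well. Of 27 tested, 18 were DEGs, all downregulated, with a median log2FC of -0.76 against -0.12 with DMSO. The largest fall in the list was that of *Rrm2*, a subunit of ribonucleotide reductase, which had 556, 518 and 399 at 4 h and 168, 149 and 174 at 24 h (log2FC -1.57 ± 0.15, adjusted p = 0.000567), against 490.0 ± 99.2 and 402 ± 18.5 with DMSO. Its larger subunit *Rrm1* fell from 1776, 1754 and 1566 to 955, 946 and 950.5 (log2FC -0.83 ± 0.08, adjusted p = 0.000512), and the helicase subunits *Mcm2*, *Mcm5* and *Mcm7* had a log2FC of -0.86, -1.02 and -0.77. The difference from DMSO was significant in 6 of the 27 genes, in 15 with the replicate block and in 2 or 3 when any 1 of 9 of the 12 libraries was left out, those of DMF replicates 1 and 2 at both times among them.

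**Figure D2:**
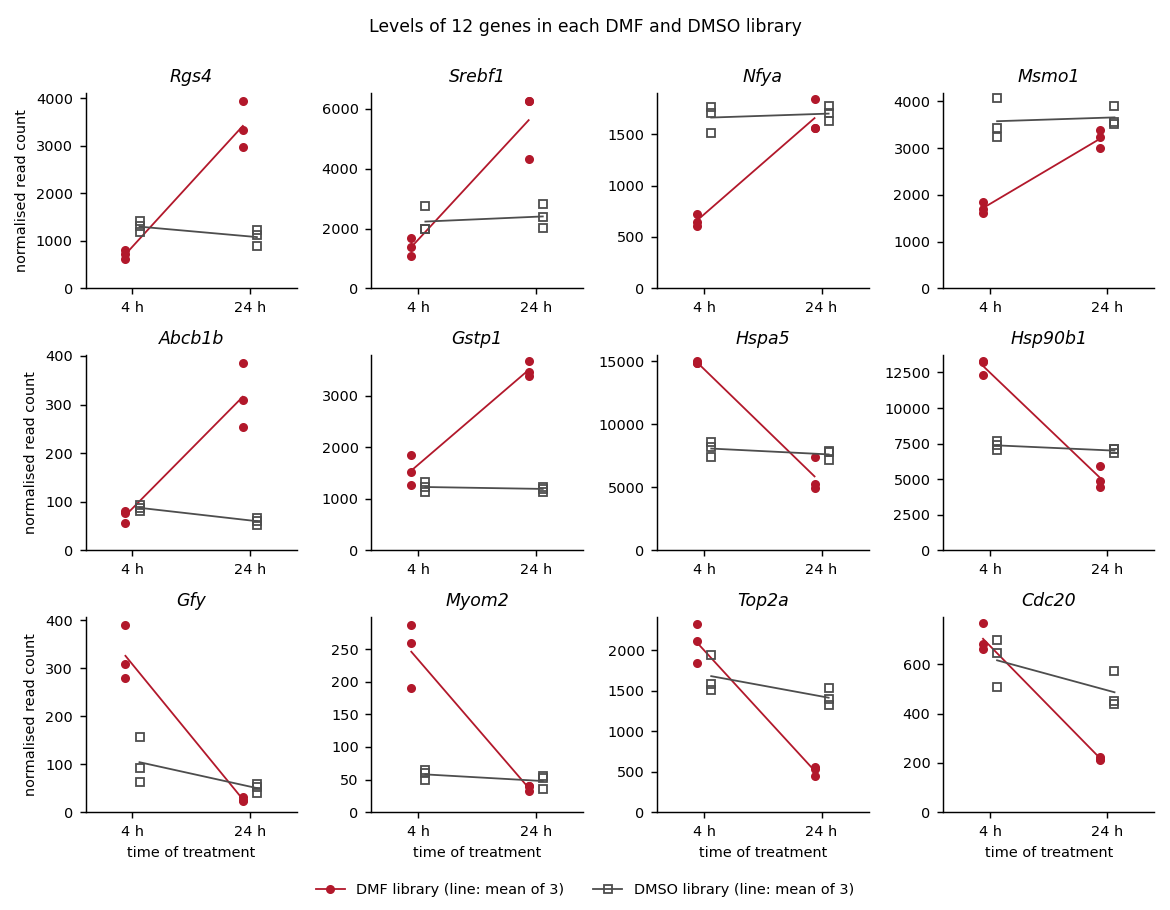
Normalised read count (vertical axis, from 0) at 4 and 24 h in each DMF library (filled circles) and DMSO library (open squares) for 12 genes, with lines joining the means of 3 libraries. *Rgs4*, *Srebf1*, *Nfya* and *Msmo1* start below the DMSO libraries at 4 h, *Hspa5*, *Hsp90b1*, *Gfy* and *Myom2* start above them, and *Abcb1b*, *Gstp1*, *Top2a* and *Cdc20* part from them at 24 h.

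The chaperones of the ER were higher at 4 h of DMF than at 24 h. Of 20 tested, 13 were DEGs between the times, all downregulated, with a median log2FC of -0.78 against -0.0027 with DMSO, and 11 differed from the change with DMSO. *Hspa5* (chr3:18055405-18059891), the Hsp70 of the ER lumen, had 15038, 14878 and 14857 normalised reads at 4 h and 5246, 4951 and 7402 at 24 h (log2FC -1.37 ± 0.14, adjusted p = 0.0009). With DMSO it had 8078 ± 581 at 4 h and 7616 ± 399 at 24 h, so that the early DMF libraries lay above all DMSO libraries. *Hsp90b1* (chr7:21110457-21124788), the ER form of Hsp90 whose promoter is printed above, had 13310.2, 13254 and 12314 at 4 h and 4893, 4424 and 5891 at 24 h (log2FC -1.36 ± 0.11, adjusted p = 0.000309), against 7373 ± 304 and 7004 ± 168 with DMSO. *Calr*, the calcium-binding lectin calreticulin, went from 14548, 14290.0 and 14176 to 6285, 6264 and 7634 (log2FC -1.10 ± 0.10, adjusted p = 0.000466). Both *Hsp90b1* and *Calr* ended below their DMSO libraries (DMF against DMSO at 24 h, log2FC -0.48 ± 0.10, adjusted p = 0.032 for *Hsp90b1* and log2FC -0.54 ± 0.09, adjusted p = 0.0123 for *Calr*). The co-chaperones and disulfide isomerases followed: *Creld2* had 997, 921 and 1084 at 4 h and 317, 311 and 439 at 24 h (log2FC -1.50 ± 0.14, adjusted p = 0.000567), and *Sdf2l1*, *Pdia4* and *Dnajc3* had a log2FC of -1.42, -1.34 and -1.07. Against DMSO, 13 of the 20 genes were higher at 4 h, where 1.87% of all genes were, and 0 were higher and 3 lower at 24 h, where 2.09% were lower. These comparisons share the libraries of the change itself and describe its start and end. All 20 had a log2FC below 0 from 4 to 24 h of DMF, but not all passed. The smallest fall was that of *Xbp1*, the factor that IRE1 splices and that directs chaperone genes, with 1504, 1566 and 1566 and 1328, 1385 and 1539 (log2FC -0.13 ± 0.08, adjusted p = 0.314).

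Part of the cytosolic heat shock proteins fell too. Of 19 tested, 8 were downregulated and 1 was upregulated, and 4 differed from the change with DMSO (7 lower and 1 higher with the replicate block). The number downregulated was 5 without replicate 2 of either time, and that of the difference was 1 or 2 without any 1 of 6 of the 12 libraries. *Hspa8*, the constitutive Hsp70, had 24679, 25110.3 and 26429 at 4 h and 16619, 15500.3 and 17669 at 24 h (log2FC -0.61 ± 0.10, adjusted p = 0.0054), against 18829 ± 801 and 19258 ± 1069 with DMSO. *Hsph1* and *Dnajb1*, partners of Hsp70, had a log2FC of -0.58 and -0.59. The gene that rose was *Hspb8*, a small heat shock protein of chaperone-assisted autophagy, with 290.2, 289 and 129.9 at 4 h and 516, 519.8 and 413 at 24 h (log2FC 1.11 ± 0.28, adjusted p = 0.032), a call that was lost without replicate 1 or 2 at 24 h. Its DMSO libraries held 350.4, 169 and 106 at 4 h, and its difference from DMSO was not significant (1.15 ± 0.54, adjusted p = 0.27), although with the block its adjusted p was 0.0181.

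Among DEGs with a mean of at least 100 normalised reads, the largest falls were those of *Gfy*, the Golgi-associated olfactory signalling regulator, and *Myom2*, a myomesin of the sarcomeric M-band, which are in none of the lists. *Gfy* had 389, 279 and 309.5 normalised reads at 4 h and 25.6, 31.6 and 22.9 at 24 h (log2FC -3.56 ± 0.20, adjusted p = 0.000137), against 156, 63.8 and 92.6 and 57.7, 40.7 and 51.8 with DMSO, so that it was above every DMSO library at 4 h and below every one at 24 h, where the comparison with DMSO did not pass (adjusted p = 0.0825). *Myom2* had 191, 287 and 259.7 and 39.5, 39.6 and 32.4 (log2FC -2.68 ± 0.20, adjusted p = 0.00022), against 59.6, 64.9 and 49.0 and 35.1, 54.9 and 53.1 with DMSO, where at 24 h the libraries of both treatments overlapped. *Dok3* and *Aunip* fell with a log2FC of -2.50 and -2.39, and both were above DMSO at 4 h (log2FC 1.25 and 1.39, adjusted p = 0.029 and 0.00996).

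**Figure D3:**
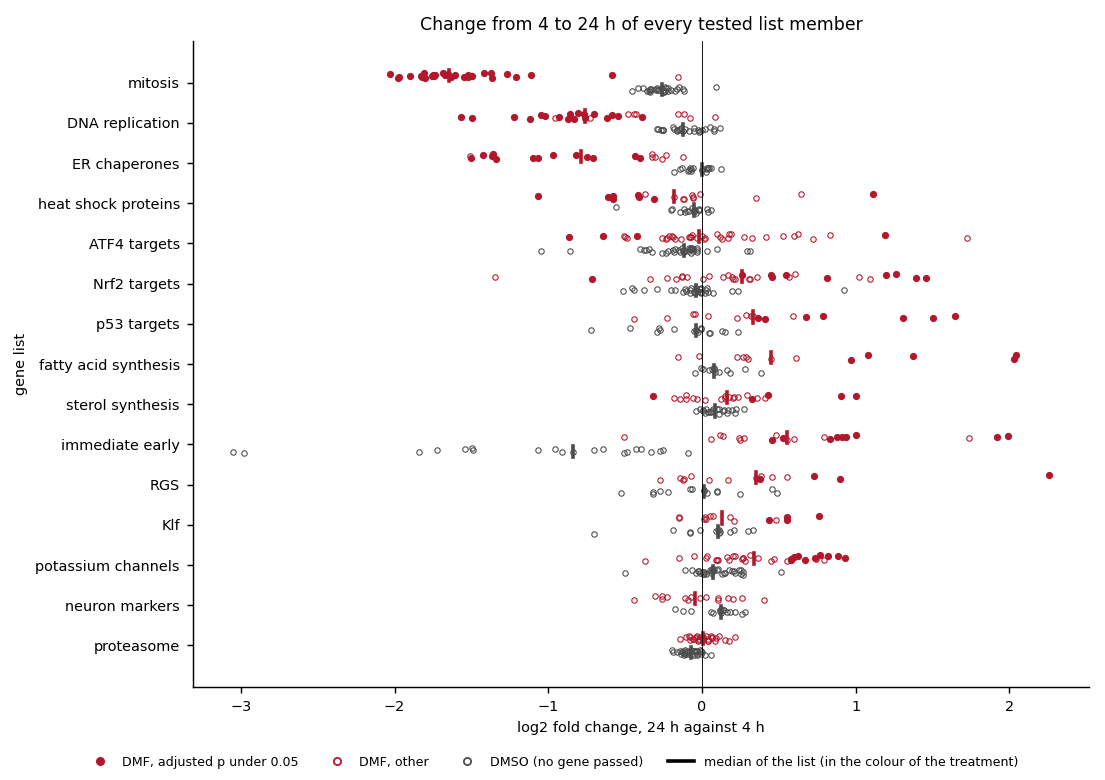
Log2 fold change from 4 to 24 h (horizontal axis) of every tested member of 15 gene lists (vertical axis) with DMF (red) and with DMSO (grey). Each point is 1 gene, filled points passed an adjusted p of 0.05 and the bars are list medians. With DMF, the mitosis list lies furthest to the left, followed by ER chaperones and DNA replication. With DMSO no gene passed in this test, which has no replicate block.

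A second set of genes had been low at 4 h of DMF and returned. *Nfya* (chr9:12586259-12613898), the DNA-binding regulatory subunit of the CCAAT factor NF-Y, had 728, 649 and 609 normalised reads at 4 h and 1567, 1564 and 1844 at 24 h (log2FC 1.32 ± 0.10, adjusted p = 0.00022). The DMSO libraries held 1515, 1709 and 1767 at 4 h and 1626, 1706 and 1774 at 24 h, so that the late DMF libraries spanned the range of the late DMSO libraries. The partner subunit *Nfyc* went the other way, with 1007, 932 and 946 at 4 h and 799.8, 747 and 691 at 24 h (log2FC -0.37 ± 0.08, adjusted p = 0.022), as did *Sp1* (log2FC -0.38 ± 0.08, adjusted p = 0.0137). Both calls were lost without replicate 1 or 2 of DMF at 4 h, and that of *Nfyc* without any 1 of 4 of the 6 DMF libraries. Of the 14 Krüppel-like factors tested, 4 were upregulated and 0 downregulated, where 7.59% of all genes were upregulated. The list did not move as a whole, with a median log2FC of 0.13 with DMF and 0.11 with DMSO. *Klf7*, which promotes axon growth, had 1059, 954 and 985 at 4 h and 1755, 1546 and 1778 at 24 h (log2FC 0.76 ± 0.08, adjusted p = 0.00118), against 1852 ± 151 and 1985 ± 90.8 with DMSO. *Klf6*, *Klf10* and *Klf15* had a log2FC of 0.55, 0.43 and 0.55. Of the 14 factors, 2 were lower than with DMSO at 4 h. The change differed from that with DMSO in 1 of them, *Klf7* (3 with the replicate block). The number of upregulated Krüppel-like factors was 1 without replicate 2 of DMF at 24 h or replicate 3 at 4 h, and 2 without replicate 1 at either time or replicate 2 at 4 h. *Fndc9* and *Lrrtm2*, the latter a postsynaptic organiser, took the same course (log2FC 1.38 and 0.84), and both had been below DMSO at 4 h (log2FC -0.98 and -0.54).

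The regulators of G protein signalling (RGS), which shorten the signal of receptors by speeding GTP hydrolysis, held the gene with the smallest p among all upregulated genes. *Rgs4* (chr13:81936775-81943068) had 622, 724 and 801 normalised reads at 4 h and 3341, 3954 and 2969 at 24 h (log2FC 2.26 ± 0.12, adjusted p = 0.000137). Its DMSO libraries held 1408, 1183 and 1305 at 4 h and 896, 1119.7 and 1220.5 at 24 h, so that with DMF it lay below every DMSO library at 4 h and above every one at 24 h. The difference from the change with DMSO was 2.53 ± 0.19, adjusted p = 9.72e-05. *Rgs8* went from 309, 316 and 259 to 578, 562 and 503 (log2FC 0.90 ± 0.11, adjusted p = 0.0021) and ended within the range of the DMSO libraries at 24 h, 521, 578 and 397. *Rgs16* had 451, 319 and 247 and 498, 572 and 572 (log2FC 0.73 ± 0.19, adjusted p = 0.037), and *Rgs10* had 438, 407 and 454 and 556, 556 and 572 (log2FC 0.38 ± 0.09, adjusted p = 0.0229). Of 15 RGS genes tested these 4 were upregulated (7 with the replicate block), where 7.59% of all genes were, and 0 were downregulated. The same 4 rose more than with DMSO, where 1.79% of all genes did. The calls of *Rgs10* and *Rgs16* were each lost when any 1 of 5 of the 6 DMF libraries was left out, and their differences from DMSO when any 1 of 11 and of 10 of the 12 libraries was.

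Some genes of lipid synthesis rose in both arms of the pathway. Of the 13 genes of fatty acid synthesis tested, 5 were upregulated and 0 downregulated (11 upregulated with the replicate block), with a median log2FC of 0.45 against 0.08 with DMSO. Of all genes, 7.59% were upregulated. *Srebf1* (chr10:45007637-45029650), which encodes the transcription factor of this pathway, had 1086, 1674 and 1373 normalised reads at 4 h and 4323, 6270.4 and 6283 at 24 h (log2FC 2.03 ± 0.18, adjusted p = 0.000485), against 1967, 2746 and 1985 and 2370.0, 2813 and 2028 with DMSO. At 24 h every DMF library was above every DMSO library. *Fasn*, the fatty acid synthase, went from 12654, 16817 and 17904 to 28020.4, 34229 and 29819 (log2FC 0.97 ± 0.15, adjusted p = 0.00465), and *Pnpla3*, a lipase of lipid droplets, from 363, 377 and 360.2 to 759, 857 and 714 (log2FC 1.08 ± 0.10, adjusted p = 0.000464). The desaturase *Scd* had 3137, 5275 and 6305 and 11435, 12957 and 12240.3 (log2FC 1.37 ± 0.22, adjusted p = 0.00541). *Thrsp* was uneven at 24 h, with 114, 152 and 139 at 4 h and 727, 1027 and 228 at 24 h (log2FC 2.05 ± 0.46, adjusted p = 0.0204), and lost its call without replicate 1 or 2 of either time. The change differed from DMSO in *Srebf1* (1.92 ± 0.27, adjusted p = 0.00251), *Fasn* (0.89 ± 0.20, adjusted p = 0.0243) and *Pnpla3* (0.92 ± 0.19, adjusted p = 0.0165), and in 6 of the 13 genes with the block. Without replicate 2 of DMF at 24 h the difference passed in 1 gene of the list, and that of *Fasn* was lost without any 1 of 6 of the 12 libraries.

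In the sterol branch, 4 of 22 genes tested were upregulated and 1 downregulated (8 and 1 with the block). Of all genes, 7.59% were upregulated and 7.93% downregulated. *Msmo1*, a sterol methyl oxidase, had 1700.0, 1849 and 1603 at 4 h and 2997, 3228 and 3391 at 24 h (log2FC 0.90 ± 0.08, adjusted p = 0.000512), against 3234, 4062 and 3431 and 3561, 3893 and 3519 with DMSO, so that every DMF library lay below every DMSO library at both times. *Insig1*, which retains the SREBP precursors in the ER, rose from 2488, 2974 and 2743 to 4503, 6373 and 5678 (log2FC 1.00 ± 0.13, adjusted p = 0.00211). These 2 genes were also the ones whose change differed from DMSO, by 0.86 and 1.00 (adjusted p = 0.00313 and 0.0205), and that of *Insig1* was lost without replicate 2 of DMF or replicate 1 or 3 of DMSO at 24 h. *Fdft1*, squalene synthase, rose by less (log2FC 0.43 ± 0.11, adjusted p = 0.0312), and the downregulated member was *Sc5d*, a sterol desaturase, with 1436, 1601 and 1494 at 4 h and 1199.7, 1189.9 and 1231 at 24 h (log2FC -0.32 ± 0.07, adjusted p = 0.0211). The call of *Fdft1* was lost without any 1 of 4 of the 6 DMF libraries, and that of *Sc5d* without replicate 1 or 2 at 24 h or replicate 2 at 4 h. The number upregulated was 2 without replicate 3 of DMF at 24 h or replicate 1 or 2 at 4 h. Part of the list was below the vehicle at each time: 9 of 22 genes were lower than with DMSO at 4 h, where 1.55% of all genes were, and 10 were lower at 24 h, where 2.09% were.

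**Figure D4:**
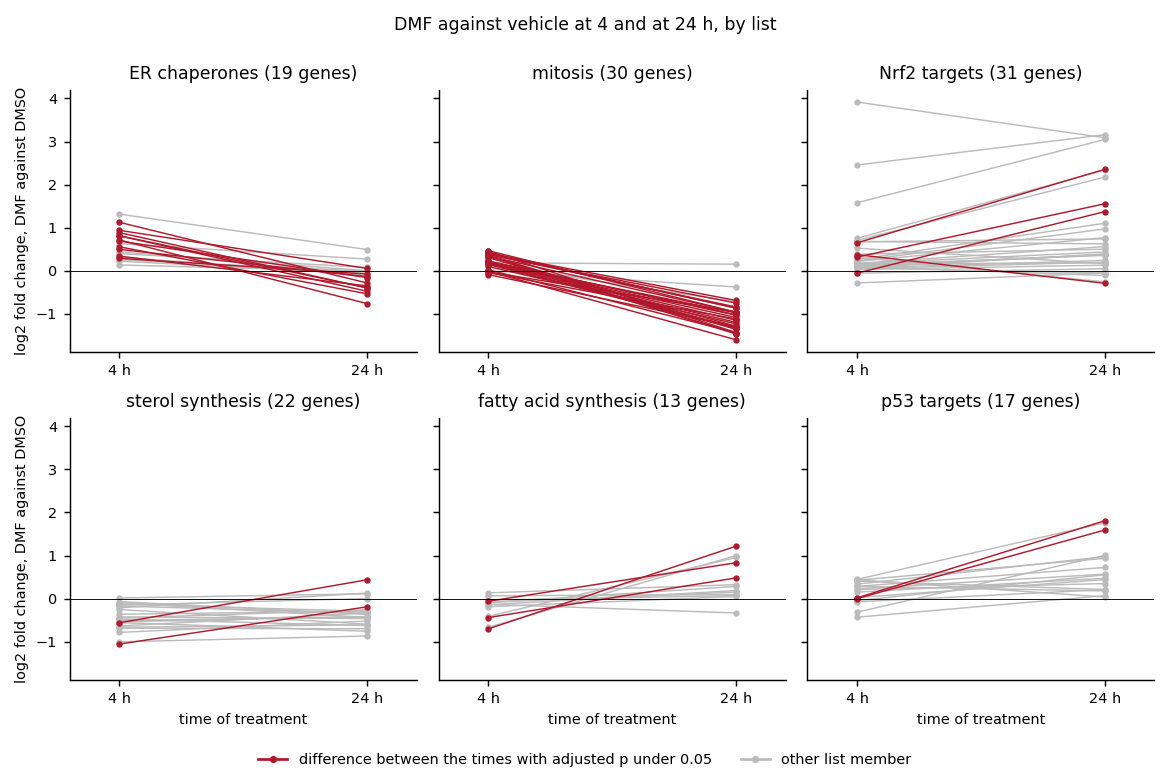
Log2 fold change of DMF against DMSO (vertical axis) at 4 and at 24 h for each gene of 6 lists. Each line is 1 gene, and red lines are genes whose change over time differed between DMF and DMSO. The ER chaperones come down from above 0, the mitosis genes leave 0 for negative values, and the change is above that with DMSO in 24 of 31 Nrf2 and 14 of 17 p53 target genes, most of which did not pass the test of the difference.

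Among the target genes of Nrf2, 9 of 31 tested were upregulated from 4 to 24 h and 1 was downregulated (16 and 3 with the replicate block), with a median log2FC of 0.26 against -0.04 with DMSO. Against DMSO, 5 were higher at 4 h and 17 at 24 h, where 1.88% of all genes were. *Gstp1* (chr1:201321672-201340226), a glutathione S-transferase whose promoter is printed above, had 1856, 1513 and 1268 normalised reads at 4 h and 3459, 3373 and 3669 at 24 h (log2FC 1.20 ± 0.13, adjusted p = 0.000935), against 1227 ± 97.5 and 1189.9 ± 49.0 with DMSO. *Nqo1*, the quinone reductase that is a usual readout of Nrf2, had 947, 614 and 447 and 1515, 1359 and 1736 (log2FC 1.26 ± 0.23, adjusted p = 0.0098). *Ephx1*, a microsomal epoxide hydrolase, had 415, 301 and 267 and 995, 1041 and 673 (log2FC 1.46 ± 0.20, adjusted p = 0.00299). In each of the 3 the late libraries lay above all early ones, and the change differed from that with DMSO by 1.24, 1.71 and 1.43 (adjusted p = 0.00125, 0.0187 and 0.0268), the last lost without any 1 of 7 of the 12 libraries. *Me1*, the malic enzyme, rose from 2083, 1864 and 1543 to 3742, 3283 and 2657 (log2FC 0.82 ± 0.14, adjusted p = 0.00806), and its difference from DMSO passed with the block alone (adjusted p = 0.0587 without and 2.07e-05 with it). Reads of close relatives within the glutathione S-transferase family could have been split between genes by the counting.

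Other Nrf2 targets took other courses. *Hmox1*, heme oxygenase 1, was far above DMSO at both times (log2FC 3.92 at 4 h and 3.09 at 24 h, adjusted p = 0.00469 and 0.00346), but its replicates took different courses, from 6508, 6100.0 and 2818 at 4 h to 1055, 1715 and 3765 at 24 h in replicates 1, 2 and 3. The log2 ratios of the times were -2.62, -1.83 and 0.42, and the change was not significant (log2FC -1.34 ± 0.45, adjusted p = 0.0765), although it passed with the block (adjusted p = 0.0271). *Srxn1*, sulfiredoxin, had 146, 124 and 85.4 and 138, 249.7 and 442 (log2FC 1.10 ± 0.38, adjusted p = 0.0847, and 0.0282 with the block). *Gclm*, the modifier subunit of the enzyme that makes glutathione, had 529.8, 558 and 462 and 397, 379.7 and 444 (log2FC -0.34 ± 0.11, adjusted p = 0.0692, and 0.0296 with the block). The downregulated member was *Ugdh*, which makes UDP-glucuronate, with 983, 1036 and 1029 at 4 h and 585, 575 and 703 at 24 h (log2FC -0.71 ± 0.10, adjusted p = 0.00279), a change that differed from DMSO (-0.67 ± 0.12, adjusted p = 0.00912). The number of upregulated members was 5 without replicate 2 of DMF at either time.

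Between 4 and 24 h, the target genes of ATF4 moved in both directions. Of 38 tested, 1 was upregulated and 3 were downregulated, near or below the 7.59% and 7.93% of all genes. With the replicate block 8 rose and 9 fell. By limma or edgeR, 0 of 37 differed from the change with DMSO (10 at an unadjusted p under 0.05, which 19.3% of all genes reached, 4 by DESeq2 and 4 with the block). Without replicate 1 of DMF at 24 h, 7 were upregulated and 1 was downregulated. Compared with DMSO, 5 of 37 were higher at 4 h and 9 of 36 at 24 h, where 1.87% and 1.88% of all genes were. In this comparison 0 were lower at either time. *Pck2*, the mitochondrial form of phosphoenolpyruvate carboxykinase, had 118, 106 and 90.7 at 4 h and 194, 206 and 339 at 24 h (log2FC 1.19 ± 0.22, adjusted p = 0.0104). *Mthfd2*, an enzyme of mitochondrial folate metabolism, had 1029.7, 882 and 1310.2 and 499, 514 and 761 (log2FC -0.87 ± 0.19, adjusted p = 0.0178), a call that was lost without replicate 1 or 2 of DMF at 24 h. *Ddit3*, which encodes CHOP, had 603, 543 and 722 and 471, 684 and 630.0 (log2FC -0.07 ± 0.16, adjusted p = 0.797) and was above DMSO at both times (log2FC 1.15 at 4 h and 0.99 at 24 h, adjusted p = 0.00708 and 0.00603).

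Target genes of p53, the factor that halts the cell cycle and starts apoptosis after damage, were among those that rose late. Of 17 tested, 7 were upregulated and 0 downregulated, against 7.59% and 7.93% of all genes. Compared with DMSO, 1 was higher at 4 h and 10 at 24 h, where 1.87% and 1.88% of all genes were. *Eda2r*, a receptor of the TNF family, had 88.8, 56.4 and 52.5 normalised reads at 4 h and 208, 254 and 156 at 24 h (log2FC 1.64 ± 0.25, adjusted p = 0.00443), against 64.2 ± 6.39 and 66.9 ± 10.8 with DMSO. *Fas*, a death receptor, had 67.1, 50.4 and 40.9 and 162, 177 and 113 (log2FC 1.50 ± 0.24, adjusted p = 0.00576). *Cdkn1a*, the cyclin-dependent kinase inhibitor p21, went from 654, 339.7 and 527 to 965, 1479 and 1242 (log2FC 1.31 ± 0.23, adjusted p = 0.00863), with a difference from DMSO that passed only with the block (adjusted p = 0.0713 without and 0.0119 with it). The difference passed in *Eda2r* (1.59 ± 0.32, adjusted p = 0.0173) and *Fas* (1.79 ± 0.45, adjusted p = 0.0431), and in 7 of the 17 genes with the block. It passed in 0 without replicate 2 of DMF at 24 h, and that of *Fas* was lost without any 1 of 7 of the 12 libraries. The number of upregulated genes was 3 or 4 without replicate 2 or 3 of DMF at 24 h or replicate 1 or 2 at 4 h.

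Of the genes with the largest rise, *Abcb1b* and *Ambp* also left the vehicle at the later time. *Abcb1b* (chr4:25242798-25325199), a drug efflux pump of the P-glycoprotein family, had 81.6, 55.6 and 77.4 at 4 h and 254, 308 and 386 at 24 h (log2FC 2.13 ± 0.21, adjusted p = 0.000622), against 86.2, 94.0 and 81.7 and 61.1, 66.4 and 51.8 with DMSO. *Ambp*, the precursor of alpha-1-microglobulin, a binder of heme, had 34.1, 22.5 and 24.9 and 214, 169.5 and 106 (log2FC 2.51 ± 0.28, adjusted p = 0.00132), against 35.8, 17.9 and 26.2 and 29.4, 25.7 and 37.5 with DMSO. At 4 h the DMF and DMSO libraries overlapped for *Ambp*, and at 24 h for neither gene.

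Immediate early genes, which neurons induce within minutes of activity, were higher at 24 h than at 4 h of DMF in 9 of 21 tested, and lower in 0. Of all genes, 7.59% were higher and 7.93% lower. The median log2FC was 0.55 with DMF and -0.84 with DMSO. *Fos* had 157, 146 and 200.1 normalised reads at 4 h and 508, 269 and 270.0 at 24 h (log2FC 1.00 ± 0.25, adjusted p = 0.0286), and the DMSO libraries held 1859, 278 and 252 at 4 h and 121, 181 and 127 at 24 h. *Arc*, which acts in synaptic receptor trafficking, had 107, 108 and 52.5 and 518, 347 and 188 with DMF (log2FC 1.92 ± 0.39, adjusted p = 0.0137), against 2199, 88.4 and 160.2 and 95.1, 78.0 and 115 with DMSO. In both genes the first DMSO library at 4 h was the one far above all others. The call of *Fos* was lost without replicate 1 or 2 of DMF at 4 h, and that of *Arc* without replicate 2 at 24 h. *Jun* rose from 2473, 3063 and 1998 to 3737, 5951 and 4238 (log2FC 0.88 ± 0.19, adjusted p = 0.0181), against 2512 ± 53.7 and 2353 ± 93.1 with DMSO, and was the 1 gene of the list whose change differed from DMSO (0.97 ± 0.22, adjusted p = 0.0308). This number was 16 with the replicate block and 3 without the first DMSO library at 4 h, and the difference of *Jun* was lost without any 1 of 8 of the 12 libraries. The call of *Jun* between the times was lost without replicate 2 of DMF at 24 h, and the number of upregulated genes was 4 or 5 without that library or replicate 1 or 2 at 4 h.

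Of 34 potassium channel genes tested, 10 were upregulated and 0 downregulated, against 7.59% and 7.93% of all genes. With the replicate block these numbers were 19 and 1. *Kcnk1*, a leak channel, had 439, 495 and 560.4 at 4 h and 820.1, 1094 and 940.2 at 24 h (log2FC 0.93 ± 0.13, adjusted p = 0.00302), against 837 ± 52.96 and 839 ± 31.0 with DMSO. *Kcnc4* and *Kcnj4* had a log2FC of 0.89 and 0.77. The difference from DMSO passed in *Kcnk1* (0.92 ± 0.16, adjusted p = 0.00685), *Kcnn2* and *Kcna4* (log2 difference 0.50 and 0.69), in 8 genes that were higher and 2 that were lower with the block, and in 1 without any 1 of 6 of the 12 libraries, 5 of them DMSO libraries. The differences of *Kcnn2* and *Kcna4* were lost without any 1 of 11 and of 7 of the 12 libraries. Without replicate 2 of DMF at 4 h, 6 of the channel genes were upregulated. Of 35 transmitter receptor genes, 2 were upregulated and 1 downregulated (5 and 6 with the block), near or below the shares of all genes in the main test. The number upregulated was 0 without replicate 1 or 3 of DMF at 24 h or replicate 1 or 2 at 4 h, 1 without replicate 2 at 24 h and 4 without replicate 3 at 4 h. The downregulated gene was *Gria3*, an AMPA receptor subunit, which went from 891, 994 and 820.1 to 587, 496 and 567 (log2FC -0.71 ± 0.10, adjusted p = 0.00391) while DMSO held 875 ± 115 and 913 ± 42.5 (-0.78 ± 0.15, adjusted p = 0.0134 for the difference). Of the 35 receptor genes, 34 had a log2FC above 0 with DMSO and 17 with DMF. The difference from DMSO was below 0 in 30 and above 0 in 5, and passed in *Gria3* alone (5 lower with the block). Compared with DMSO, 0 receptor genes were lower at 4 h and 4 at 24 h, where 2.09% of all genes were. Of 30 genes of synaptic vesicles, 3 were upregulated and 1 downregulated (8 and 2 with the block), also near or below the shares of all genes in the main test. Without 1 library, 0 were downregulated, and 7 were upregulated without replicate 3 of DMF at 4 h but 0 or 1 without any other DMF library.

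The neuron markers, which check the labelled cell type, had reads in every library. Of 16 tested, 0 were DEGs between the times with DMF by limma or edgeR (6 at an unadjusted p under 0.05, which 31.2% of all genes reached), DESeq2 called 1 higher and 1 lower, and 2 rose and 5 fell with the replicate block. *Rbfox3* had 2513, 2269 and 2965 at 4 h and 2017, 1905 and 2334 at 24 h, and *Syn1* had 4616, 4866 and 6707 and 6632, 6875 and 7662. Summed levels of the 16 genes were 134886 to 157480.0 at 4 h and 129027 to 153090.0 at 24 h of DMF. The cultures also held RNA of other cell types, with summed levels over 11 astrocyte markers of 45267 to 88275 and 62942 to 113729, over 12 markers of the oligodendrocyte lineage of 10238 to 14406 and 12942 to 15742, over 9 vascular and fibroblast markers of 1217 to 2287 and 1017 to 1379.7, and over 7 microglial markers of 150.3 to 399.7 and 83.7 to 122. The astrocyte marker *Gfap* had 21794, 21937 and 9915 at 4 h and 46031, 52413 and 29979 at 24 h (log2FC 1.31 ± 0.32, adjusted p = 0.0268), was lowest in replicate 3 at both times, and lost its call without replicate 1 or 2 at 24 h. Its DMSO libraries held 32322, 24778 and 15558 and 27455, 31994 and 16751, and the difference passed with the block alone (adjusted p = 0.193 without and 0.000135 with it). It was the 1 DEG among the astrocyte markers and is part of their summed level. Of the 11 astrocyte markers, 7 had a log2FC above 0 and 4 below 0 with DMF (median 0.10, against 0.14 with DMSO). Their difference from DMSO was below 0 in 8 and above 0 in 3, and passed in 0 (1 higher and 1 lower with the block). In the oligodendrocyte lineage, *Cspg4*, which marks its precursors, fell from 796, 841 and 629.7 to 453, 442 and 489 (log2FC -0.70 ± 0.12, adjusted p = 0.00731), whereas with DMSO it had 907, 732 and 635 and 1101, 961 and 981 (-1.13 ± 0.19, adjusted p = 0.00578 for the difference). *Olig1* rose (log2FC 0.62 ± 0.16, adjusted p = 0.033), a call lost without any 1 of 4 of the 6 DMF libraries, and without a significant difference from DMSO (0.16 ± 0.19, adjusted p = 0.719), and 5 of the 11 markers tested against DMSO at 24 h were lower. Of 14 microglial markers, 7 had enough reads to be tested, and *Itgam*, *Cx3cr1*, *P2ry12*, *Tmem119*, *Tyrobp*, *Trem2* and *Ptprc* had not. All 7 had a log2FC below 0 with DMF, with a median of -1.14, and 1 of them passed by limma, 2 by edgeR and 5 with the replicate block. With DMSO 2 had enough reads, *Csf1r* and *Cd68*, and both were below 0 (log2FC -1.31 and -0.94). The change differed from DMSO in 0 of the 7, and 6 of the differences were above 0. The gene that passed with DMF by limma was *Cd68*, which fell (log2FC -0.90 ± 0.20, adjusted p = 0.021), from a mean of 80.0 to 42.4. With DMSO its means were 79.9 and 40.3, and each 4 h mean includes the replicate 1 library with the high microglial sum. Its call was lost without any 1 of 4 of the 6 DMF libraries. Of the vascular and fibroblast markers, *Col1a2* fell and *Pdgfrb* rose (log2FC -1.20 and 0.70, adjusted p = 0.0488 and 0.0493), each call lost without any 1 of 5 of the 6 DMF libraries. The part of these cells in the changes of mitosis genes, chaperones and other lists was not tested.

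Few genes of other lists passed the test. Of 31 proteasome genes and of 13 protein-coding genes of the mitochondrial genome, 0 were DEGs between the times by limma, edgeR or DESeq2, with 2 and 0 at an unadjusted p under 0.05, and with the block 1 proteasome gene rose. Of 20 glycolysis genes, *Eno2* rose (log2FC 0.45, adjusted p = 0.0139), and of 8 genes of metal handling *Mt1* and *Slc30a1* rose and *Slc39a10* fell (log2FC 1.17, 0.28 and -0.45), while 4 rose with the block. These calls were lost without any 1 of 2 of the 6 DMF libraries for *Eno2*, of 3 for *Mt1*, of 6 for *Slc30a1* and of 2 for *Slc39a10*.

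DMF was also compared over time with MMF, which carries 1 methyl ester group fewer and was given at the same dose for the same times. This was the 1 pair of compounds compared. From 4 to 24 h of MMF, 0 of 14171 genes were DEGs by limma, with 1488 (10.5%) at an unadjusted p under 0.05. This test leaves out the pairing by replicate number, and no count with the block is given for MMF alone. With DMSO the block moved the count from 0 to 205, so the 0 does not show that MMF changed no gene over time. The change with DMF differed from that with MMF in 587 of 14602 genes (4.02%), higher with DMF in 269 (1.84%) and lower in 318 (2.18%). *Rgs4* differed by a log2 of 2.37 (95% interval 1.94 to 2.79, adjusted p = 0.000113), *Top2a* by -1.86 (95% interval -2.23 to -1.50, adjusted p = 0.000198), *Hsp90b1* by -1.31 (95% interval -1.62 to -1.01, adjusted p = 0.000414) and *Nfya* by 1.42 (95% interval 1.08 to 1.75, adjusted p = 0.000546). Of the lists, 28 of 30 mitosis genes, 12 of 20 ER chaperones and 8 of 27 genes of DNA replication fell more with DMF than with MMF. Among the Nrf2 targets, 2 rose more and 1 fell more. *Gstp1* rose more with DMF by 0.77 (95% interval 0.43 to 1.12, adjusted p = 0.0205), and *Ephx1* by 1.22 (95% interval 0.66 to 1.77, adjusted p = 0.0215). For *Nqo1* the difference was 0.79 (95% interval -0.04 to 1.61, adjusted p = 0.298), for *Me1* 0.47 (95% interval -0.07 to 1.02, adjusted p = 0.347) and for *Hmox1* -0.89 (95% interval -2.41 to 0.64, adjusted p = 0.563). For these last 3 genes the intervals contained 0 and also differences as large as the change with DMF itself, so that they do not show that both esters acted alike.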

How the data were processed

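RNA of 30 libraries of hippocampal neurons was sequenced, and the 6 libraries with DMF were compared between 24 and 4 h, with 6 DMSO and 6 MMF libraries beside them. Per the labels, the authors used FastQC 0.12.1, cutadapt 4.4, Trimmomatic 0.39, HISAT2 2.2.1 on mRatBN7.2, HTSeq 2.0.3 and DESeq2 1.40.2 in R 4.3.1, and the strand setting of the counting is not given in the sources used here. The deposited signal values are gene read counts over DESeq2 size factors, which the authors computed within each pair of groups. The columns of log2 fold changes, p-values and adjusted p-values that the authors deposited were not used, and 0 columns belonged to other samples. In every library 100% of the values were whole multiples of 1 step (tolerance 0.01), which gave back the reads of 21993 genes, and a gene absent from a table was given 0 reads.

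Changes were tested with limma 3.58.1 in R 4.3.3 after adding a pseudocount of 1 and taking the log2, so that folds of low genes are understated, for genes kept by filterByExpr of edgeR 4.0.16, two-sided, with Benjamini-Hochberg adjustment over all genes tested. Differences between treatments were fitted as interactions in 12 libraries on recovered reads over median-ratio size factors. Ratios to the vehicle were fitted in the same way within each time. Alternatives were edgeR's quasi-likelihood test, TMM scaling, DESeq2 1.42.0, no filter, a pseudocount of 0.1, a replicate block, a minimum log2 fold change of 0.5, the spread of all 30 libraries and leaving out each library. Groups came from the labels. The labels state 3 independent experiments, and libraries of the same number deviated together from their group means (correlations of 0.316 to 0.465 between the DMF times, at most 0.0292 between different numbers), so the numbers pair the samples. The main test leaves this pairing out, since no source used here states a block, and it calls fewer genes than the test with the block. The counts were 2216 against 4616 with DMF, 0 against 205 with DMSO and 594 against 1904 for their difference. A gene or list without a call in the main test can therefore have one with the block.

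The genes named are the 10 higher and 10 lower DEGs with the smallest p whose groups do not overlap, the 4 on each side with the largest fold change at a mean of at least 100, the 5 on each side with the smallest p of the difference from DMSO, the 4 list members with the smallest p in each list, and members that stand for a list. Of 522 listed genes, 509 were in the tables and 494 had enough reads to be tested, and 1 further gene is not reported here. Members, lists and rules were chosen with earlier results of these data known. On simulated counts of the DMF comparison, 23.5%, 82.8% and 95.5% of the genes changed by a log2 of 0.5, 1 and 2 were recovered. For the difference from DMSO the shares were 3.08%, 63.6% and 89.2%. The simulation of the DMF comparison changed 68, 64 and 66 of 14151 genes by these amounts, while 2216 genes were DEGs in the data. Recovery in the data can therefore differ from these shares. Promoters were read from RefSeq tables of GRCr8, of which no coordinate was mixed with those of mRatBN7.2. Plots were drawn with matplotlib 3.10.9 in Python 3.11.15.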

Additional observations from a re-analysis of the deposited data

Results flagged for a closer look

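The change from 4 to 24 h was tested for a difference between treatments, and 594 genes differed between DMF and DMSO and 587 between DMF and MMF. These tests share the DMF libraries. The values below are the log2 change with DMF minus the log2 change with DMSO, and each passed an adjusted p of 0.05 in limma.

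Changes in favour of DMF were found for *Abcb1b* (2.67), *Rgs4* (2.53), *Ambp* (2.26), *Srebf1* (1.92), *Fas* (1.79), *Nqo1* (1.71), *Eda2r* (1.59), *Ephx1* (1.43), *Fndc9* (1.34), *Nfya* (1.29) and *Gstp1* (1.24). Smaller ones were those of *Rgs16* (1.05), *Insig1* (1.00), *Rgs8* (0.97), *Jun* (0.97), *Pnpla3* (0.92), *Kcnk1* (0.92), *Fasn* (0.89), *Msmo1* (0.86), *Kcna4* (0.69), *Klf7* (0.66), *Kcnn2* (0.50) and *Rgs10* (0.44). Some of these calls did not hold when 1 library was left out. They were lost without any 1 of 11 of the 12 libraries for *Kcnn2* and *Rgs10*, of 10 for *Rgs16* and of 8 for *Jun*. For *Kcna4*, *Fas* and *Ephx1* this number was 7, for *Fasn* 6, for *Insig1* 3, and for *Pnpla3* and *Eda2r* 1.

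In the other direction, *Gfy* (-2.60) and *Myom2* (-2.39) stood lowest of those named here. Of the genes of mitosis and DNA replication, *Nusap1* (-1.82), *Top2a* (-1.79), *Troap* (-1.72), *Espl1* (-1.595), *Cdc20* (-1.35), *Aspm* (-1.31), *Rrm2* (-1.30) and *Mki67* (-1.26) fell more with DMF, and of the chaperones *Sdf2l1* (-1.48), *Creld2* (-1.41), *Hsp90b1* (-1.29), *Hspa5* (-1.29), *Calr* (-1.09) and *Hspa8* (-0.65). *Cspg4* (-1.13), *Gria3* (-0.78) and *Ugdh* (-0.67) complete the list. Groups of 3 libraries were not tested for a single library far from the others.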

How the results depend on the processing

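With the replicate block, the DEGs between the times with DMF numbered 4616 (2312 higher and 2304 lower), and 4697 (2402 and 2295) with the block in edgeR's quasi-likelihood test. The pairing by number moved the DMSO count from 0 to 205 (183 in edgeR), and DESeq2 without the block called 48. For the difference from DMSO, the block gave 1904 (1936 in edgeR) and DESeq2 993, and for the difference from MMF 2209 (2215) and 939. The spread of all 30 libraries gave 3341 DEGs with DMF, 1770 of them lower, and 897 for the difference from MMF, and a log2 fold change minimum of 0.5 gave 1405 (666 higher and 739 lower). When 1 library was left out, the DEGs with DMF lay between 941 and 1916, with 375 to 933 higher and 551 to 983 lower, those of DMSO stayed at 0, and the differences lay between 275 and 644 from DMSO and between 284 and 553 from MMF. The counts of DEGs over all genes stayed within 1.5 times under the other settings.

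The sign of 2 named changes turned without 1 library, and neither was called: that of *Ddit3* lay between -0.1804 and 0.08669 (above 0 without replicate 1 at 24 h or replicate 3 at 4 h) and that of *Anln* between -0.3411 and 0.09862 (above 0 without replicate 3 at 24 h). Of 134 named changes, the block moved 23 past the threshold and ended the call of 0, edgeR moved 2, DESeq2 8 and TMM 1 past it, and calls were lost in 1 with DESeq2, 2 with TMM, 4 without the filter and 9 with the spread of all libraries. Of 62 named differences from DMSO, calls were lost in 3 with edgeR, 6 without the filter and 7 with that spread, and in 0 with the block, DESeq2 or TMM. The cause of these shifts was not tested. On simulated counts with few genes changed, most changes by a log2 of 0.5 with DMF were not recovered. The part of depth in this was not tested.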
